A study of Mus musculus with 6 samples.

Results

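The IL-6 family of cytokines and their receptors was followed in cultured mouse astrocytes that received a BRAF KE plasmid. The 10 genes, chosen by name, encode 5 cytokines (Il6, Lif, Il11, Clcf1 and Cntf) and 5 receptor chains (Il6ra, Il6st, Lifr, Osmr and Il11ra1), and each was found once among the 55357 genes of the deposited table. Cortical astrocytes came from late embryos of C57BL/6 mice. By the culture method given for them, they were shaken, replated and kept in a medium that contains HB-EGF, a ligand of the EGF receptor. In 3 cultures (KE) the cells were transfected with BRAF K499E, and 3 cultures (NT) were not transfected. The plasmid that the paper describes for its astrocytes adds a FLAG tag and uses the CMV promoter, which is not restricted to astrocytes. For the paper's immunostained cultures a GFP plasmid was given with it, and the sample titles do not name the plasmids used here. RNA is labelled as harvested at 48 hours in both groups. Neither an empty plasmid nor BRAF WT was among the cultures analysed here, so BRAF KE and transfection itself cannot be told apart in any difference below. The labels do not say whether the 3 cultures of a group came from separate litters, so the p-values measure the spread between these cultures only.

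These cytokines signal through gp130, the shared receptor chain that Il6st encodes. IL-6 and IL-11 bind their own alpha receptors (Il6ra, Il11ra1) and then a pair of gp130 chains, whereas LIF, CNTF and CLCF1 signal through gp130 paired with the LIF receptor (Lifr), CNTF and CLCF1 with the help of the CNTF receptor (Cntfr). Oncostatin M pairs gp130 with its own receptor (Osmr). Inside the cell, JAK kinases bound to gp130 phosphorylate STAT3, while the phosphatase SHP2 (Ptpn11) links the receptor to the RAS-ERK pathway, and SOCS3 shuts the receptor down. In the brain, LIF and CNTF are known for driving precursor cells toward the astrocyte fate, and astrocytes are a source of IL-6 and LIF after injury.

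The start regions of 4 of the cytokine genes are shown because 3 of them rose together, whereas the fourth, Cntf, did not pass the test. Each sequence is the 250 bases before a RefSeq transcription start, taken from RefSeq's promoter table (build GRCm38.p6) and placed on GRCm39 by an exact match that was unique on its chromosome, and capitals mark matches of the motifs searched. The Il6 stretch is chr5:30217862-30218111 on the plus strand, the Lif stretch chr11:4207318-4207567 on the plus strand, the Il11 stretch chr7:4781141-4781390 on the minus strand, and the Cntf stretch chr19:12742997-12743246 on the minus strand. Il11 has 2 RefSeq starts, and the one shown is at the start of the Ensembl canonical transcript.
Il6: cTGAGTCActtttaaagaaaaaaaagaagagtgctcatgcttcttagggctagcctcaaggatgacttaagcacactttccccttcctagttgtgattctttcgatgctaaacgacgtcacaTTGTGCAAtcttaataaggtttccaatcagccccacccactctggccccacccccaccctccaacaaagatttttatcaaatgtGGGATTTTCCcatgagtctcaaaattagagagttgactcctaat
Lif: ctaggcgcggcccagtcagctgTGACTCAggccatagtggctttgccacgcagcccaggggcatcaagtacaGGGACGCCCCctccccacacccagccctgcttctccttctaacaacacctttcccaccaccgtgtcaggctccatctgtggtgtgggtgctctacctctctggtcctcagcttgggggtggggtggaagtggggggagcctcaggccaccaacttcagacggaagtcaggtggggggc
Il11: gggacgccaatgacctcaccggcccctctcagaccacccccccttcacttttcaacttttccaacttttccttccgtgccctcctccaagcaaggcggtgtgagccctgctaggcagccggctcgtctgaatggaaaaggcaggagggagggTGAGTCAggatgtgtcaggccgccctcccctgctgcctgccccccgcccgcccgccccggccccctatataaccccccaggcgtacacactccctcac
Cntf: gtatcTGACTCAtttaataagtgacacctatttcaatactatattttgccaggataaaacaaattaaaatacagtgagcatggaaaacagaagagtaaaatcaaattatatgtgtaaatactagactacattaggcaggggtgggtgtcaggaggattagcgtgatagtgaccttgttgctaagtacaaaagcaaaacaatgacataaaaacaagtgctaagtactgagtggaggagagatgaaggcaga

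Both strands were searched for AP-1 (TGANTCA), CRE (TGACGTCA), STAT (TTCNNNGAA), C/EBP (TTNNGNAA) and ETS (CCGGAAG), and for the ISRE, NF-κB and CArG motifs, a set chosen with the expression results known. An AP-1 match was present in all 4 sequences, from base 249 to base 243 before the start in Il6, 228 to 222 in Lif, 98 to 92 in Il11 and 245 to 239 in Cntf. Among all 32851 RefSeq promoters of the same length, 6.75% hold this motif. The NF-κB motif was matched in Il6 at bases 44 to 35 and in Lif at bases 178 to 169, against 7.25% of all promoters, and C/EBP in Il6 at bases 128 to 121, against 36.8%. No motif overlapped another. The other motifs had no match in these sequences and are held by 1.55% (CRE), 7.02% (STAT), 6.91% (ETS), 2.98% (ISRE) and 1.47% (CArG) of all promoters. The second Il11 start, not shown, had no match of any of the motifs, so the AP-1 match of Il11 holds for the start shown only. The other sequences of this family also showed no AP-1 or NF-κB match, and among them Il6ra held 2 matches of C/EBP. The Clcf1 promoter is not in the table used. These are matches of letters only, and binding was not measured.

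In the deposited table, gene counts had been divided by a size factor for each culture, so the values here are normalized counts, and their totals of 30472429 to 30895529 are not the depth. Taking the spacing of the lowest values as 1 read, the depth was approximately 24500000 to 34100000 reads, lowest in KE replicate 2. Braf, the transfected gene, had a mean of 36979 ± 3464 in KE against 894 ± 73.1 in NT (SD, n = 3), with no separation of plasmid from chromosome. Of 10 astrocyte markers, 9 of them tested, 6 rose and 1 fell (51.3% of all tested genes were called), and their summed level was 149078 to 151320 in KE and 107988 to 113021 in NT. S100b was only at 11.8 to 31.5 and Gjb6 at most at 1.83. The cultures also held transcripts of microglia and macrophages. All 14 markers used for those cells fell, with a median log2FC of -3.34, and their summed level was 3703 to 5637 in KE and 40945 to 49000.3 in NT. In bulk RNA, fewer cells of a type and less RNA per cell cannot be told apart.

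Differences were tested with limma on log2(normalized count + 1) in the 15280 genes with a mean of at least 10, and a gene was called a DEG at a Benjamini-Hochberg adjusted p below 0.05 over all of them. All 10 genes of the family were tested. Of these, 6 were upregulated and 1 was downregulated, that is 7 of 10 called, while 51.3% of all tested genes were called, 25.3% as upregulated and 26% as downregulated. Upregulation was found for 4 of the 5 cytokines, by 2.58-fold to 39.4-fold, while Cntf did not pass. The 3 receptor genes that passed the test differed by 1.36-fold to 1.52-fold in either direction. The median log2FC was 0.44 for the 10 genes and 0.00 for all tested genes. The 3 KE values lay entirely above the 3 NT values in 6 genes and entirely below in 2, compared with 30.1% and 29.9% of all tested genes, or 59.9% in either direction. For any gene taken alone, the exact two-sided permutation test has 0.1 as its smallest p with 3 cultures in each group.

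**Figure D1:**
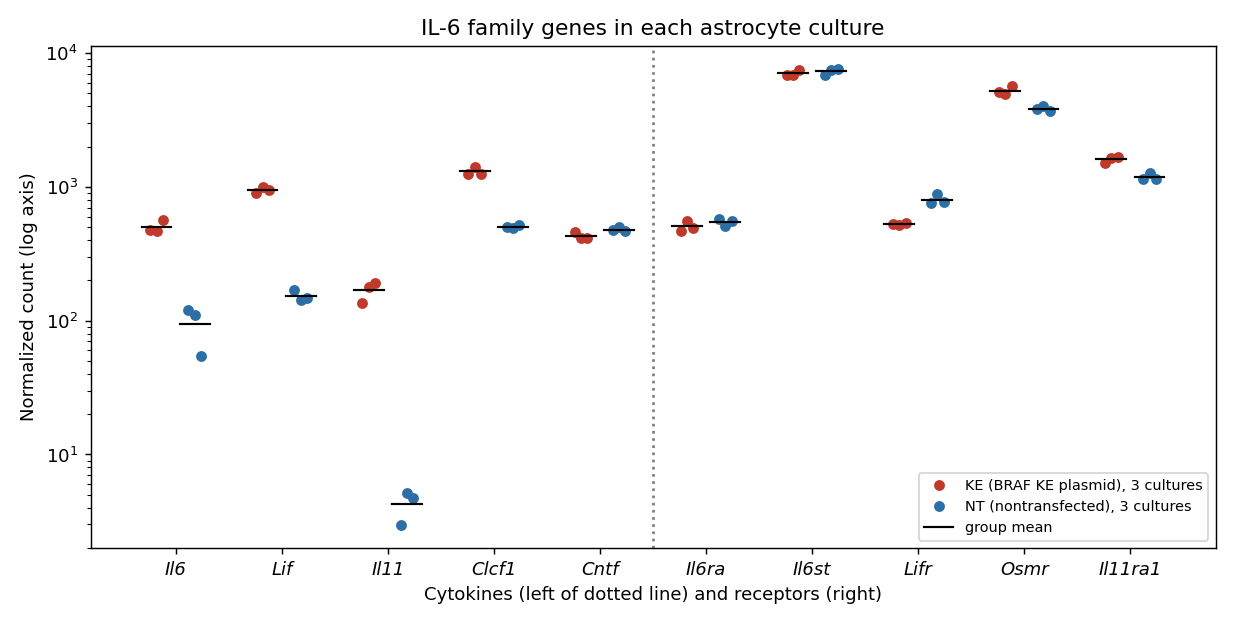
Normalized count (log axis) of each IL-6 family gene in each of the 3 KE and 3 NT cultures, with cytokines left and receptors right of the dotted line and group means as bars. Il6, Lif, Il11 and Clcf1 are separated between the groups, whereas Il6ra and Il6st overlap.

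Il11 showed the largest change of the family. The encoded cytokine, interleukin 11, acts on stromal and epithelial cells and is known for its role in fibrosis. The gene (ENSMUSG00000004371) is found at 4775372 to 4785858 of chromosome 7 (GRCm39, as for all positions below), on the minus strand. The KE cultures had 136, 178 and 192 normalized counts, against 2.95, 5.14 and 4.74 for NT. It was thus close to the limit of detection in every NT culture, approximately 2.98 to 4.98 reads, and clearly present in every KE culture. The means were 168 ± 29.3 and 4.28 ± 1.17 (SD, n = 3), a ratio of 39.4 and a log2FC of 5.02 (SE 0.28, adjusted p = 1.36e-07), the 14th highest log2FC of the 15280 tested genes. Because the NT values are so low, the size depended on the pseudocount, and with 5 in place of 1 the log2FC was 4.22.

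Lif encodes leukemia inhibitory factor, which acts on astrocytes and their precursors. The gene (ENSMUSG00000034394) is on the plus strand of chromosome 11, from 4207557 to 4222514. Lif was at 898, 994 and 944 normalized counts in KE and 171, 142 and 148 in NT, so that the lowest KE culture was well above the highest NT culture. Lif rose from 154 ± 15.3 to 945 ± 47.6 (SD, n = 3), or 6.15-fold, with a log2FC of 2.62 (SE 0.10, adjusted p = 1.53e-08).

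Il6 encodes interleukin 6, the acute-phase cytokine that gives the family its name. It lies on the plus strand of chromosome 5, from 30218112 to 30224979 (ENSMUSG00000025746). Values were 479.8, 469 and 566 in KE and 119.9, 110.1 and 54.6 in NT. The groups did not overlap, and NT replicate 3 was the lowest culture. Il6 rose 5.33-fold, from 94.8 ± 35.2 to 505 ± 53.2 (SD, n = 3), a log2FC of 2.48 (SE 0.25, adjusted p = 1.05e-05). In the ranking of all tested genes by log2FC, Lif stood at 108 and Il6 at 123 from the top.

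Clcf1 encodes cardiotrophin-like cytokine factor 1, a ligand of the CNTF receptor. The gene (ENSMUSG00000040663) lies on the plus strand of chromosome 19, from 4264292 to 4273546. It was at 1257, 1418 and 1244 normalized counts in KE and 506, 489 and 522 in NT, and every KE culture was well above every NT culture. The means were 1306 ± 96.9 and 506 ± 16.7 (SD, n = 3), with a log2FC of 1.37 (SE 0.08, adjusted p = 1.67e-07). Its exons share 311 bases with Gm45928 on the same strand, and adding the counts of that gene gave a log2FC of 1.37.

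Cntf encodes ciliary neurotrophic factor, which astrocytes make and which is released on injury. The gene (ENSMUSG00000079415) lies on the minus strand of chromosome 19, from 12737353 to 12742996. It was at 459, 417 and 414 in KE and 475, 499.6 and 465 in NT. Every KE culture was below every NT culture, but only slightly, and the log2FC of -0.16 did not pass the test (95% interval -0.35 to 0.04, adjusted p = 0.155). The interval does not contain a fall of the size seen for Lifr. Cntf shares 847 exon bases on the same strand with Gm44505, so the split of reads between these genes is uncertain. With the counts of both summed, the log2FC was -0.12 (adjusted p = 0.274), and KE replicate 1 was then above NT replicate 3, so that the groups overlapped.

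**Figure D2:**
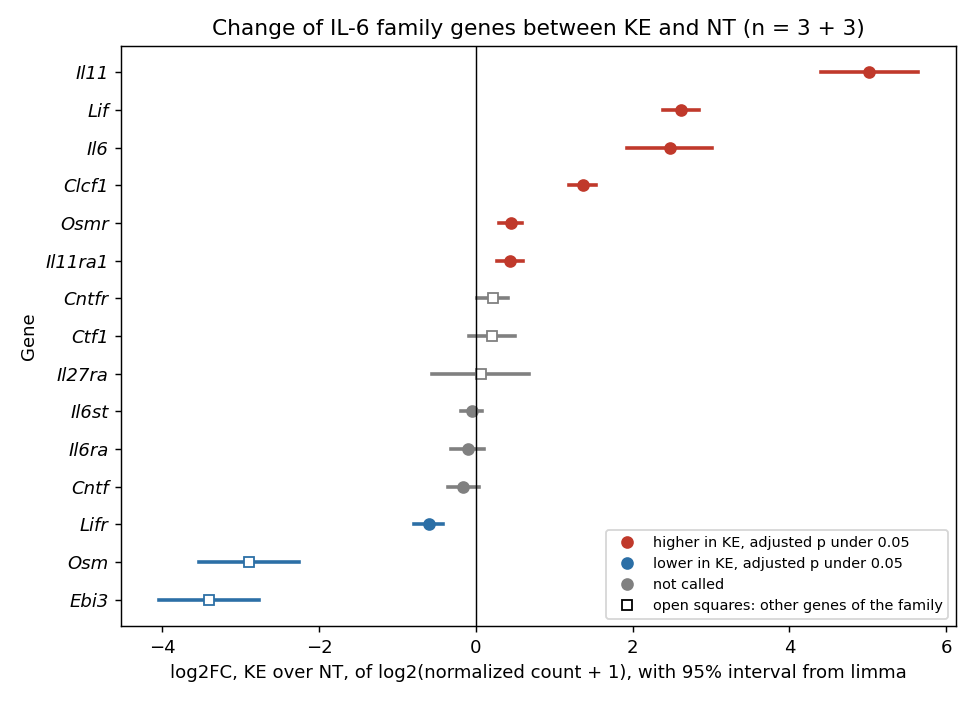
Log2FC between KE and NT (horizontal axis, on the log2(normalized count + 1) scale) with 95% intervals from limma for the 10 genes (filled circles) and the 5 other tested genes of the family (open squares), n = 3 per group. Il11, Lif, Il6 and Clcf1 lie above 1, and Osm and Ebi3 lie below -2.

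Among the receptors, the shared chain differed little between the groups. Il6st, on the plus strand of chromosome 13 from 112600604 to 112646620 (ENSMUSG00000021756), was at 6825, 6893 and 7428 in KE and 6846, 7428 and 7636 in NT. The groups overlapped, and the log2FC was -0.05 (95% interval -0.19 to 0.08, adjusted p = 0.513).

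Il6ra, the alpha receptor for IL-6, lies on the minus strand of chromosome 3 from 89771366 to 89820719 (ENSMUSG00000027947). Its normalized counts were 471, 558 and 493 in KE and 572, 509 and 556 in NT. These values also overlapped, with a log2FC of -0.11 (95% interval -0.31 to 0.10, adjusted p = 0.37). The summed level of the microglia and macrophage markers was 10.6-fold higher in NT, with single log2FC from -4.12 to -0.88. The part of these cells in the level of Il6ra was not tested. The ratio of Il6ra to Il6st was 0.0721 ± 0.00776 in KE and 0.0749 ± 0.00776 in NT (SD, n = 3, exact permutation test, two-sided p = 0.6).

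The receptors that pair with gp130 went in opposite directions. Osmr, the oncostatin M receptor, lies on the minus strand of chromosome 15 from 6843053 to 6904450 (ENSMUSG00000022146). It was at 5139.6, 4907 and 5691 in KE and 3829, 3994 and 3718 in NT. Without overlap, it was 1.36-fold higher in KE, at 5246 ± 403 against 3847 ± 139 (SD, n = 3), a log2FC of 0.45 (SE 0.07, adjusted p = 1.94e-04).

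Lifr, the receptor chain for LIF, CNTF and CLCF1, is on the plus strand of the same chromosome, from 7120095 to 7226970 (ENSMUSG00000054263). It was at 526, 516 and 537 in KE and 753, 885 and 767 in NT. Each KE culture was thus below each NT culture, and Lifr was 1.52-fold higher in NT, with a log2FC of -0.60 (SE 0.09, adjusted p = 1.54e-04). Exons of antisense lncRNA genes share 1530 bases with Lifr (Gm62219), 458 with Il6ra (Gm42809) and 181 with Il6st (6720470G18Rik). The library kit keeps the strand, but whether the counting used it is not given in the sources used here.

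The ratio of Osmr to Lifr was 9.77, 9.504 and 10.6 in KE, against 5.08, 4.51 and 4.85 in NT. All 3 KE ratios were above all 3 NT ratios. The mean ratio was 9.95 ± 0.566 in KE and 4.81 ± 0.287 in NT (SD, n = 3), a difference of 1.05 on the log2 scale. The exact permutation test gave a two-sided p of 0.1, the smallest that 3 against 3 allows. The direction follows from the changes of these 2 genes.

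**Figure D3:**
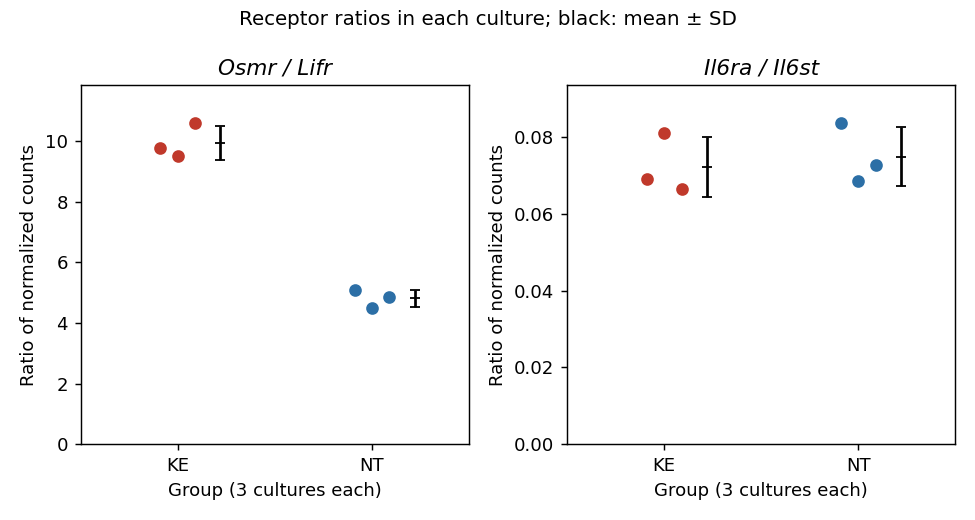
Ratio of normalized counts of Osmr to Lifr (left) and of Il6ra to Il6st (right) in each of the 3 KE and 3 NT cultures, with mean ± SD in black beside the points. The Osmr to Lifr ratio is between 9.504 and 10.6 in KE and between 4.51 and 5.08 in NT, whereas the Il6ra to Il6st ratios overlap.

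Il11ra1, the alpha receptor for IL-11, lies on the plus strand of chromosome 4 from 41699989 to 41769485 (ENSMUSG00000073889). Normalized counts were 1497, 1655 and 1683 in KE and 1139, 1280.4 and 1147 in NT, and the groups did not overlap. It rose to 1612 ± 100.2 from 1189 ± 79.4 (SD, n = 3), with a log2FC of 0.44 (SE 0.07, adjusted p = 5.46e-04). The mouse genome holds near-identical copies of this gene, to which the counting could have assigned some reads. Il11ra2 was at most 7.23 in any culture and Gm13305 at most 2.77, and the log2FC of Il11ra1 and Il11ra2 summed was 0.44.

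Levels of different genes were compared per kilobase of the Ensembl canonical transcript. In NT, Clcf1 was the highest cytokine gene at 274 ± 9.05 normalized counts per kilobase (SD, n = 3), followed by Cntf at 101 ± 3.73, Il6 at 83.1 ± 30.9, Lif at 38.2 ± 3.80 and Il11 at 2.19 ± 0.598. The values of Cntf and Il6 overlapped. In KE the order was Clcf1 at 707 ± 52.4, Il6 at 443 ± 46.7, Lif at 235 ± 11.8, Cntf at 90.6 ± 5.29 and Il11 at 86.4 ± 15.04. There the values of Cntf and Il11 overlapped, and the other neighbours were separated.

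For the receptors, the order per kilobase in NT was Il6st at 842 ± 47.2, Osmr at 700.0 ± 25.3, Il11ra1 at 575 ± 38.4, Lifr at 80.6 ± 7.28 and Il6ra at 63.1 ± 3.80 (SD, n = 3), with no overlap between neighbours. In KE it was Osmr at 955 ± 73.3, Il6st at 812 ± 38.0, Il11ra1 at 780.1 ± 48.5, Il6ra at 58.7 ± 5.23 and Lifr at 52.9 ± 1.06. Il6st and Il11ra1 overlapped there, and Il6ra and Lifr were separated by less than 1 per kilobase between their nearest cultures. These orders rest on the length used. With the length of all exons of a gene in place of it, Il6st was ahead of Osmr in KE as well, at 454 against 423 per kilobase, and Il6 and Lif were nearly level in KE, at 208 and 205. The order of Lifr and Il6ra in NT also turned, to 58.1 and 61.6 per kilobase.

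Other genes of the family were taken as a list of 10, of which 5 passed the mean filter. Osm, which encodes oncostatin M, and Ebi3, a subunit of IL-27 and IL-35, were downregulated, and none of the others was called. Thus 2 of 5 tested genes were called, against 51.3% of all tested genes, 26% of them as downregulated. Osm was at 7.17, 13.6 and 8.98 in KE and 84.4, 82.2 and 68.2 in NT, and was thus low in every KE culture, with a log2FC of -2.89 (SE 0.29, adjusted p = 1.03e-05). Ebi3 was at 15.3, 20.02 and 20.8 in KE and 227, 300.5 and 127 in NT, with a log2FC of -3.40 (SE 0.29, adjusted p = 3.22e-06). Myeloid cells are a known source of both transcripts. The 14 microglia and macrophage markers fell by log2FC of -4.12 to -0.88, with a median of -3.34, and the part of these cells in the fall of Osm and Ebi3 was not tested. The exons of Ebi3 share 1102 bases with Gm16712 on the opposite strand.

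The remaining genes of the list gave no call. Cntfr, the CNTF receptor, was at 569, 596 and 591 in KE and 509.5, 546 and 461 in NT, with a log2FC of 0.21 and an adjusted p of 0.0634. Ctf1, which encodes cardiotrophin 1, had a log2FC of 0.21 (adjusted p = 0.212), and its exons share 639 bases with Ctf2 on the opposite strand. Il27ra, a subunit of the IL-27 receptor, had a log2FC of 0.06, which turned negative without KE replicate 3 (-0.13) or NT replicate 1 (-0.07). Ctf2 was listed at 0 in all 6 cultures, and Il27, Il31, Il31ra and Il11ra2 had means below the filter.

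**Figure D4:**
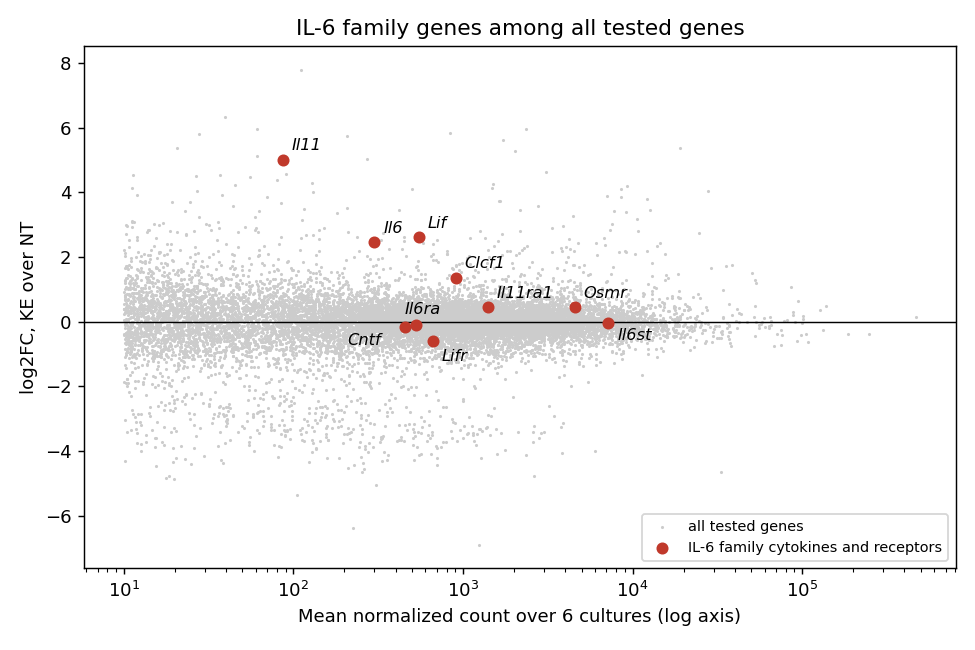
Log2FC between KE and NT (vertical axis) against the mean normalized count over the 6 cultures (horizontal, log axis) for the 15280 tested genes in grey, with the 10 IL-6 family genes in red. Il11, at 5.02, is the 14th highest, and Il6, Lif and Clcf1 lie above the bulk of genes of the same level.

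Genes of the gp130 signaling chain were compared as a list of 18, all tested. Upregulation was found for 7 and downregulation for 3, and 8 were not called, so 10 of 18 were called against 51.3% of all tested genes. The median log2FC was 0.02. The largest changes among these 18 were those of Socs1 (log2FC 1.31), an inhibitor of JAK kinases, the phosphatase gene Ptpn2 (0.89), Stat5a (0.58) and Socs3 (-0.50). The other genes named from this list were singled out after their values were seen. Stat3, the main transcription factor of this pathway, was at 17375, 18680.4 and 18347 in KE and 14265, 14495 and 14569 in NT, a log2FC of 0.33 (adjusted p = 4.16e-04). The kinase genes Jak2, Tyk2 and Jak1 rose by log2FC of 0.23, 0.22 and 0.21. The call of Jak2 was lost without KE replicate 1 or 3 or NT replicate 3, and that of Tyk2 without KE replicate 1 or 2 or NT replicate 1 or 3. Both were also lost in limma without the variance trend (adjusted p = 0.0773 and 0.0503). Ptpn11, which encodes SHP2, had a log2FC of -0.04 (95% interval -0.17 to 0.08).

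Socs3, the feedback inhibitor that binds gp130 and is itself induced by STAT3, was downregulated. It was at 812, 854 and 795 in KE and 1122, 1106 and 1269.5 in NT, without overlap, and its log2FC was -0.50 (SE 0.08, adjusted p = 2.56e-04). Ptpn1 and Gab1 also fell, with log2FC of -0.27 and -0.16, but the call of Gab1 held in only 1 of the 6 fits that left out a culture, the fit without KE replicate 2.

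Of 16 genes known to respond to STAT3, 12 were upregulated and 3 downregulated, with a median log2FC of 0.58, so that 15 of 16 were called against 51.3% of all tested genes. Socs3, which fell, was counted in the gp130 list and is not among these 16. The largest rises were those of Lcn2 (1.499), Timp1 (0.93), Gfap (0.87) and Vegfa (0.81), which encode lipocalin 2, a metalloproteinase inhibitor, the astrocyte filament protein and a vascular growth factor. Myc, Serpina3n and Mcl1 fell, by log2FC of -0.32, -0.31 and -0.16, and Pim1 (0.13) was not called. These 4 were named after their values were seen, and the call of Mcl1 held in only 1 of the 6 fits that left out a culture, the fit without KE replicate 3. Most of these genes also respond to other pathways, NF-κB and ERK among them, so the list is not specific to gp130. It was also chosen with earlier results of these data known, and Gfap is counted among the astrocyte markers too. The count is thus a description and not a measure of STAT3 activity.

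**Figure D5:**
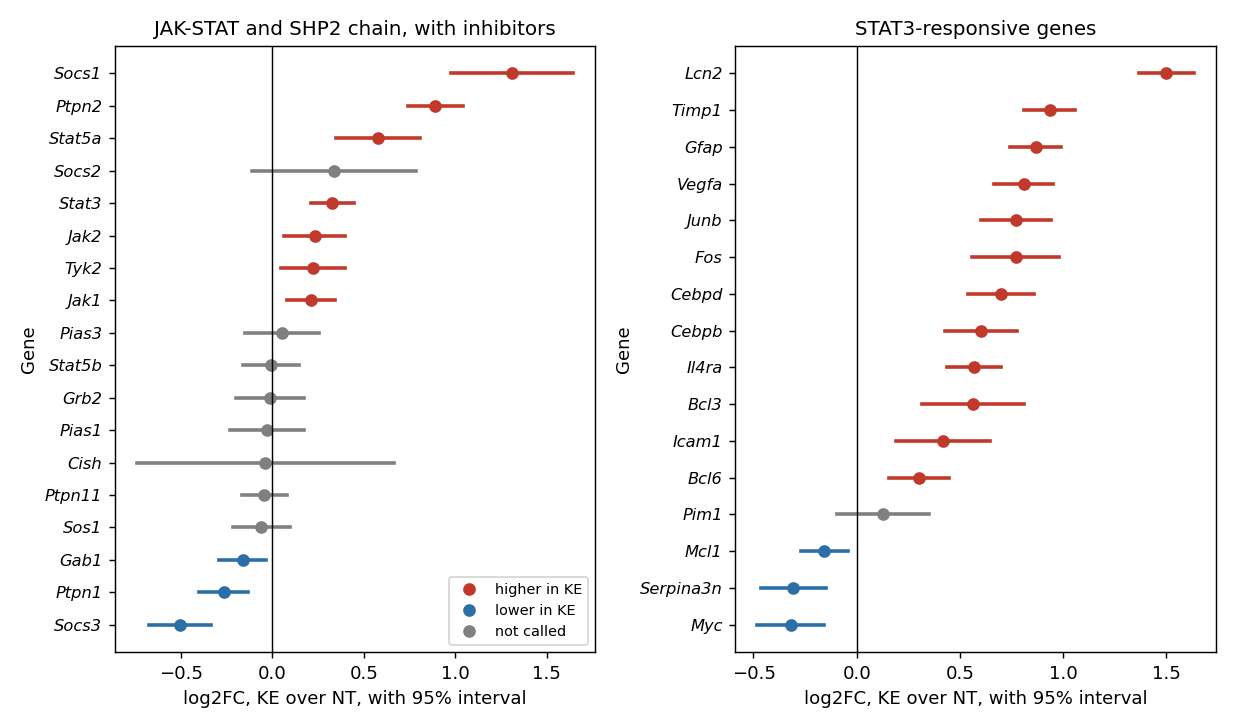
Log2FC between KE and NT with 95% intervals from limma for 18 genes of the gp130 signaling chain (left) and 16 STAT3-responsive genes (right). Socs1 at 1.31 and Socs3 at -0.50 are the ends of the left panel, and Lcn2 at 1.499 is the highest on the right.

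Proteins that control the decay of the Il6 transcript were compared as a list of 9, of which 4 rose and 4 fell, against 51.3% of all tested genes called in either direction, with a median log2FC of 0.04. Arid5a, which stabilizes the transcript, had a log2FC of 0.59, and the decay factors Zfp36 and Zc3h12a had log2FC of 0.57 and 0.40. Khsrp, another decay factor, fell with a log2FC of -0.43. The call of Zc3h12a was lost without KE replicate 3 or NT replicate 3, that of Zfp36l1 without NT replicate 2, and that of Rc3h2 without KE replicate 2 or 3 or NT replicate 1 or 2. Both stabilizing and destabilizing genes were among those that rose. Of 4 genes for shedding of the IL-6 receptor, the proteases Adam10 (-0.33) and Adam17 (-0.15) fell and Rhbdf1 (0.23), a partner of ADAM17, rose, so 3 of 4 were called against 51.3% of all tested genes. The call of Adam17 was lost without KE replicate 1 or 2 or NT replicate 1 or 2, and that of Rhbdf1 without KE replicate 2 or NT replicate 1.

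The genes whose profile over the 6 cultures was nearest to that of Il6, by Euclidean distance of centred log2 values, were F830016B08Rik, Phf11b and H2-Q5, at distances of 0.363, 0.412 and 0.415. Their log2FC were 2.44, 2.62 and 2.62, and each was lowest in NT replicate 3, as Il6 was. H2-Q5 is a class I MHC gene that could share reads with similar genes, which was not tested. Nearest to Il6ra were Pars2, Xkr5 and Dexi, at distances of 0.0616, 0.0653 and 0.0661, none of which was called. Over 6 cultures in 2 groups, many genes have similar profiles, so nearness is a description only.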

How the data were processed

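PolyA RNA of 3 KE and 3 NT astrocyte cultures had been sequenced with a stranded kit. The deposited values are a signal, gene counts that the authors estimated with Salmon and divided by DESeq2 size factors, and whole reads could not be recovered from them, since only 75.2% to 77.7% of low values lay within 0.1 of a multiple of the value of 1 read. The submitters' processing notes name Trim Galore, STAR, Salmon, DESeq2 and GRCh38, although the gene identifiers are of mouse. The study's methods name GRCm39 and a batch adjustment, but not the batches, so no batch could be modelled.

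KE and NT were compared with limma 3.58.1 (R 4.3.3, variance trend) on log2(normalized count + 1) in genes with a mean of at least 10, with Benjamini-Hochberg adjustment over 15280 genes. On simulated data, 99% of genes changed by 1 and 100% of those changed by 2 on the log2 scale were recovered, with 3 of 14781 unchanged genes called. Only 100 genes of each size were changed there, all with an NT mean of at least 50. Every gene had the same fixed dispersion, without replicate or cell type effects. These rates therefore need not hold for the real cultures or for genes as low as Il11 in NT. Positions and transcript lengths came from Gencode vM39 on GRCm39, in which 54749 of 55357 identifiers were found. Some genes of the lists are not reported here and are in none of the list counts or sums. The genes, lists and motifs were chosen with earlier results of these data known. Named were all 10 genes, the rest of the family, the 4 largest called changes in each pathway list, and the 3 profiles nearest to Il6 and to Il6ra. Further genes of the gp130, STAT3 and Il6 mRNA stability lists were named after their values were seen. Alternatives were the pseudocount, the filter, the normalization, the variance trend, the replicate block and leaving out each culture, and, chosen after seeing the data, sums with overlapping genes and another transcript length.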

Additional observations from a re-analysis of the deposited data

How the results depend on the processing

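The counts of 6 upregulated and 1 downregulated gene of the family held under all alternatives run, while the number of all DEGs went from 7844 to between 6776 and 7199 when a culture was left out. The labels do not say whether cultures of the same replicate number were paired. Deviations of same-numbered cultures correlated weakly, by 0.059 to 0.066, against a mean of -0.032 for different numbers. Each KE culture correlated best with the NT culture of its own number, so a weak shared effect was neither shown nor excluded. With the replicate block there were 8046 DEGs, and 6 and 1 in the family. For the rest of the family, 1 gene was called down with a mean of at least 50. Osm, with a mean of 44.1 over all cultures, was below that filter and was not tested there. Under quantile normalization 1 was called up, Cntfr (log2FC 0.25), and leaving out cultures gave 0 to 1 called up, the call being that of Cntfr without NT replicate 2 (0.27, adjusted p = 0.0397). Without the variance trend, the gp130 chain had 5 genes called up and 2 down and the STAT3-responsive list 2 down, 2 Il6 mRNA stability genes were called up and 3 down, and for receptor shedding 0 up and 1 down. Without a filter the gp130 chain had 2 genes called down, the lost call being that of Gab1, and 1 shedding gene was called down. For the shedding genes, leaving out cultures gave 0 to 1 up and 1 to 2 down. Il27ra ranged from -0.13 without KE replicate 3, and -0.07 without NT replicate 1, to 0.22. The log2 ratio of Il6ra to Il6st went from -0.14 to 0.03 when cultures were left out, turning to 0.00164 without KE replicate 3 and 0.0255 without NT replicate 1. The gp130 chain had 5 to 7 called up and 2 to 3 down when cultures were left out, the STAT3-responsive list 12 up and 2 to 3 down, and the Il6 mRNA stability list 3 to 4 up and 3 to 4 down. The cause was not tested. Quantile normalization called 52.8% of DEGs up, against 49.3%. The approximately 3 to 5 reads of Il11 in each NT culture limit the precision of its fold change.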

Other observations

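The median log2FC of the markers of other cell types was nearer to 0 than that of the microglia and macrophage markers, although single markers overlapped in size. All 6 tested oligodendrocyte lineage markers fell, with a median log2FC of -0.65 and summed levels of 26565 to 31177 in KE and 35106 to 35498 in NT. Of 7 fibroblast and mural markers, 3 rose and 2 fell, with a median log2FC of -0.21. Of 3 tested endothelial markers 2 fell, with a median of -0.62. Of 5 tested neuron markers 1 rose and 1 fell, with a median of -0.07. Of all tested genes, 51.3% were called in either direction. The part of these cells in the levels of the IL-6 family was not tested.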
